A study of Homo sapiens with 4 samples.

Results

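The adhesion G protein-coupled receptors were taken as every protein-coding gene row whose current symbol began with ADGR followed by a subfamily letter and a digit, or was CELSR1, CELSR2 or CELSR3. This gave 32 genes of 57820 rows in each file, of which 19263 rows were protein-coding. RNA was compared between TD cells (2 libraries) and parental A549 cells (2 libraries). A549 is an established human line from a non-small cell lung cancer with epithelial morphology. TD cells are A549 cells with the morphology named TGF-β induced mesenchymal like, kept on TGF-β at 2 ng/ml given every 3 days. Both lines grew in DMEM with 10% serum and gentamycin, and the labels name no TGF-β for the parental cells. How many TD lines or clones there were is not stated, and the cytokine and any other difference in how the lines were kept cannot be told apart. No label states whether the paired libraries of a line were separate cultures, so the p-values rest on the spread of those libraries alone, and that spread may be technical.

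Adhesion GPCRs are surface receptors with a long extracellular part that binds matrix or neighbouring cells, joined to a membrane part of the G protein-coupled type. Most are cut at an autoproteolysis site beside the membrane, and a tethered peptide uncovered there can switch on G protein signalling. In epithelial tissue, members are known for roles in planar cell polarity, cell-matrix contact and secretion, and in lung ADGRF5 is known for the control of surfactant.

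Libraries held 28237849 and 44133836 gene counts for TD and 26729278 and 29381872 for A549. A count of 0, which allows up to 3 counts, leaves up to 0.068 to 0.112 CPM (counts scaled to library size) undetected. That range uses the gene totals as they stand, and the other CPM carry a further scaling between libraries (TMM). Such limits, and the exact intervals given further on, hold for counting error alone. Epithelial and mesenchymal markers followed the labels. Of 6 epithelial markers, 5 fell and KRT7 was not called, with CDH1 (E-cadherin) at 2.95 CPM in TD against 189.9 CPM in A549. All 5 mesenchymal markers and all 6 TGF-β response genes rose. Of the 7 endothelial markers measured, VWF was at 0 counts in TD and CDH5 had 2 counts in TD and 3 in A549. KDR had 13 and 9 counts and TEK 6 and 16 counts in TD, with 0 in A549, and ERG rose (adjusted p = 0.00725). TIE1 had 2 and 0 counts in TD and 0 in A549, while CLDN5 went the other way, with 1 and 4 counts in TD against 8 and 4 in A549. The list summed to 1.52 and 1.43 CPM in TD against 0.503 and 0.169 CPM in A549. Of 8 leukocyte markers, CD3E and MS4A1 had 0 counts in every library, CSF1R rose, CD14 fell, and CD68 and ITGAM were not called. Of 7 fibroblast markers, 3 were tested, COL1A1 and COL3A1 rose and LUM fell, and DCN had 0 counts in TD. The fibroblast list summed to 261.5 and 297 CPM in TD against 5.46 and 5.49 CPM in A549, nearly all of it COL1A1 (278 CPM on average in TD, 3.79 CPM in A549). The TD libraries differed from each other in pseudogenes, with a median absolute log2 difference of 2.22 over 2112 pseudogenes and 0.14 over 13208 protein-coding genes, against 0.23 and 0.11 between the A549 libraries. The coefficient of variation of the fit was 20.1% with all genes and 7.90% without pseudogenes. It was 32.7% without A549 replicate 1 and 33.4% without A549 replicate 2, where the spread comes from the TD libraries alone. Without TD replicate 1 or 2 it was 7.07% and 7.11%. Calls that ended without an A549 library, given below, ended in fits with that larger spread.

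Several receptors rose strongly in TD cells and several others fell. The largest receptor signal in TD was ADGRG1, 4.94-fold higher than in A549, and ADGRA2, ADGRF4 and ADGRF2 rose by larger folds at lower levels. ADGRG2, ADGRL3, ADGRL2 and CELSR2 fell, by 14.4-fold to 3.16-fold, and ADGRG3 and ADGRB3 had no count in TD. Of the 32 members, 24 passed the filter on low counts (a minimum count of 10) and 8 were not tested. Of those 24, 7 rose and 10 fell at an adjusted p below 0.05 by edgeR's quasi-likelihood test, and 5 and 7 did so by at least 2-fold. The background over all 17785 tested genes was 43.0% called, with 21.6% up and 21.4% down in TD, and 9.49% and 12.3% at 2-fold or more. Over the 13208 protein-coding genes tested it was 50.6%, with 25.7% up and 24.9% down, and 10.3% and 13.2% at 2-fold or more. The CPM of the lines did not overlap in 21 of the 24 members, against 74.0% of all tested genes and 79.8% of the protein-coding ones. The median log2 change was -0.36 over the 24 members, also with the members at 0 counts set at their bounds. It was -0.04 over all tested genes and 0.02 over the protein-coding ones. The median absolute log2 change was 1.27 over the members, against 0.50 over all tested genes and 0.44 over the protein-coding ones. Members such as ADGRF2, ADGRG3 and ADGRB3 passed the filter only through the line where they were high, so the member counts and medians describe the family and support no statement about it as a set. Without A549 replicate 1 the counts were 5 higher and 5 lower, and likewise without A549 replicate 2. Fewer cells making an RNA and less of it per cell cannot be told apart in these bulk libraries.

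**Figure D1:**
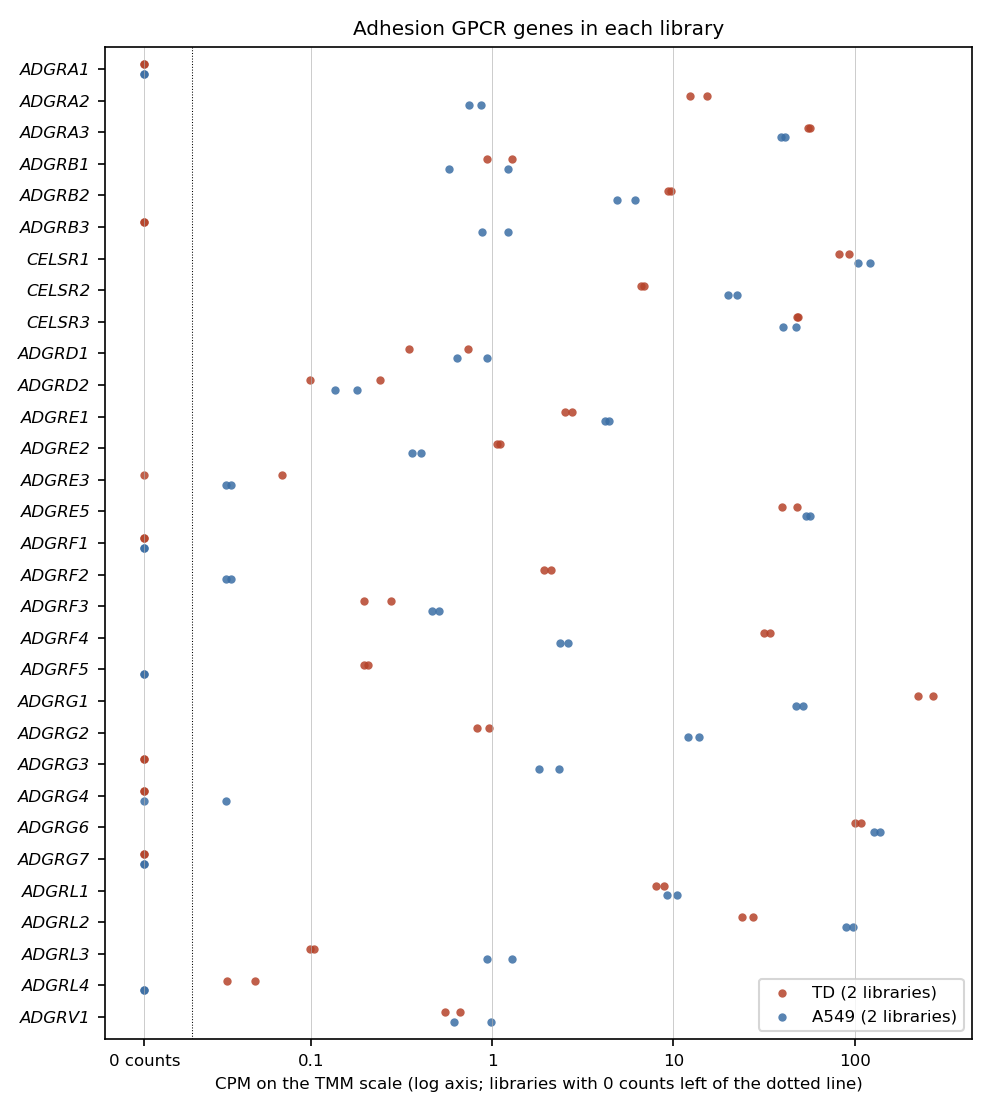
CPM of 31 adhesion GPCR genes on a log axis, with 1 point per library, TD in red and A549 in blue, and libraries with 0 counts set left of the dotted line. ADGRG1 reached 222 and 269 CPM in TD, ADGRG3 and ADGRB3 were at 0 counts in TD, and ADGRA1, ADGRF1 and ADGRG7 were at 0 counts in all 4 libraries.

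**Figure D2:**
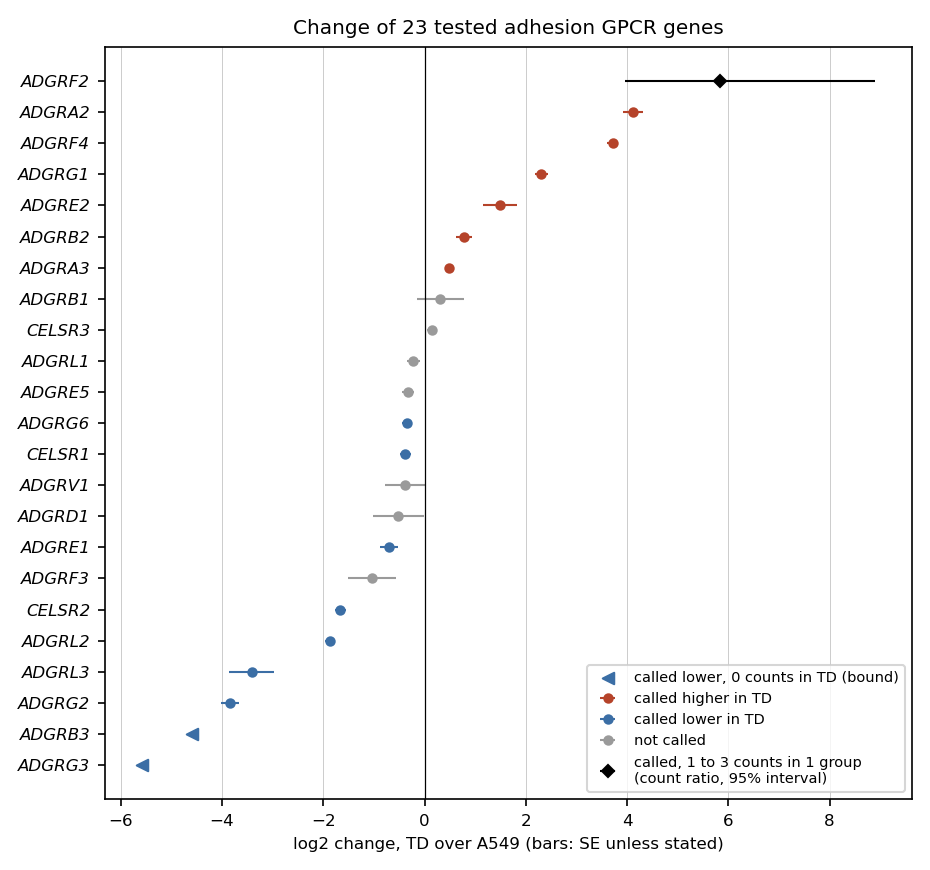
log2 change of TD over A549 for 23 of the 24 tested members, with SE bars, red for called higher, blue for called lower and grey for not called. The diamond for ADGRF2 is a ratio of summed counts with its 95% exact interval, and the triangles for ADGRG3 and ADGRB3 are bounds set by 0 counts in TD.

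Subfamily G held the riser with the highest level, ADGRG1, and the strong falls of ADGRG2 and ADGRG3. ADGRG1 (ENSG00000205336.7, GPR56) is a receptor for collagen III and transglutaminase 2 that couples to Gα12/13 and RhoA. It had 222 and 269 CPM in TD, against 52.0 and 47.7 CPM in A549 (log2 change 2.30, SE 0.13, adjusted p = 0.000261). ADGRG6 (GPR126), which binds collagen IV, raises cyclic AMP and is needed for myelination by Schwann cells, had 100.1 and 108.5 CPM in TD against 128 and 139 CPM in A549. Both TD libraries lay under both A549 libraries, and the fall was small (log2 -0.35, SE 0.09, adjusted p = 0.0277). ADGRG2 (ENSG00000173698.13, HE6), known for fluid handling in the male reproductive tract, had 0.827 and 0.959 CPM in TD against 13.9 and 12.0 CPM in A549 (log2 -3.85, SE 0.18, adjusted p = 0.000155). ADGRG3 (ENSG00000182885.12, GPR97), best known from neutrophils, had 0 counts in both TD libraries against 65 and 54 counts in A549. It was at least 48.1-fold lower in TD, where the bound replaces 0 by 3 counts over both TD libraries (adjusted p = 0.00173). The ADGRG6 call did not hold once A549 replicate 1 or 2 was left out (adjusted p = 0.105 and 0.0709). ADGRG4 had 1 count in 1 A549 library and none elsewhere, and ADGRG7 had none in any library.

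In subfamily F, ADGRF4 and ADGRF2 rose and ADGRF5 was seen only in TD libraries, at low counts. ADGRF4 (ENSG00000153294.7, GPR115), known in mice from enamel-forming cells and expressed in stratified epithelia, had 34.1 and 31.6 CPM in TD, against 2.37 and 2.63 CPM in A549 (log2 change 3.71, SE 0.11, adjusted p = 5.56e-05). ADGRF2, which lies next to ADGRF4 and which RefSeq now lists as a transcribed pseudogene, had 61 and 78 counts in TD against 1 and 1 in A549. The ratio of summed counts was 57.4-fold (95% exact counting interval 15.6 to 478, adjusted p = 0.000555). The exons of this pair overlap by 77 bases on the same strand, so a few reads could be shared or dropped as ambiguous. ADGRF5 (GPR116), the receptor that limits the surfactant pool of alveolar type II cells, had 6 and 8 counts in TD and 0 in both A549 libraries. It was not tested, and the counts put it at least 3.85-fold higher in TD, by the same kind of bound. With no filter on low counts its adjusted p was 0.0162. ADGRF3 had 0.276 and 0.197 CPM in TD against 0.467 and 0.506 CPM in A549 and was not called (log2 -1.05, SE 0.47, adjusted p = 0.143), although with pseudogenes left out of the fit its adjusted p was 0.0431. ADGRF1 (GPR110), a receptor for a lipid amide derived from docosahexaenoic acid, had no count in any library.

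Of subfamily A, both tested members rose. ADGRA2 (GPR124, also called TEM5) acts with the membrane protein RECK to sharpen the response of brain endothelium to WNT7 ligands. It had 12.4 and 15.4 CPM in TD, against 0.862 and 0.742 CPM in A549 (log2 change 4.11, SE 0.20, adjusted p = 0.000173). About 23.1% of its annotated exon bases overlap BRF2 on the opposite strand. The endothelial marker list, given above, summed higher in TD than in A549 as well, with VWF and CDH5 at 0 to 3 counts and CLDN5 lower, and its part in the ADGRA2 and ADGRF5 values was not tested. BRF2 had 274 and 340 counts in TD against 292 and 297 in A549, while ADGRA2 had 360 and 625 counts in TD against 24 and 22 in A549. ADGRA3 (GPR125) had 55.6 and 56.5 CPM in TD against 41.1 and 39.3 CPM in A549, a small rise with no overlap between the lines (log2 0.48, SE 0.07, adjusted p = 0.00607). The ADGRA3 call was lost without A549 replicate 1 (adjusted p = 0.0588). ADGRA1 had no count in any library.

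The latrophilins, subfamily L, bind teneurins and FLRT proteins on neighbouring cells. ADGRL2 had 24.02 and 27.37 CPM in TD, against 90.0 and 97.4 CPM in A549 (log2 change -1.86, SE 0.10, adjusted p = 0.000250). ADGRL3, at a far lower level, fell as well. It had 3 and 4 counts in TD against 26 and 38 in A549 (log2 -3.41, SE 0.44, adjusted p = 0.00396). Leaving out A549 replicate 2 ended that call (adjusted p = 0.0668). ADGRL1 had 8.00 and 8.83 CPM in TD against 10.5 and 9.17 CPM in A549 and was not called (log2 -0.22, SE 0.13, adjusted p = 0.247). ADGRL4 (ELTD1), a receptor of vascular endothelium, had 1 and 2 counts in TD and 0 in A549, which is at the detection limit in both lines.

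The CELSR receptors, subfamily C, carry cadherin repeats and act in planar cell polarity. CELSR2 had 6.65 and 6.84 CPM in TD, against 22.6 and 20.1 CPM in A549 (log2 change -1.66, SE 0.11, adjusted p = 0.000421). CELSR1, the most abundant of the trio, had 82.1 and 92.6 CPM in TD against 122 and 105 CPM in A549 (log2 -0.38, SE 0.11, adjusted p = 0.0489). That call was close to the threshold and was lost without A549 replicate 1 (adjusted p = 0.252). CELSR3 had 48.8 and 48.3 CPM in TD against 47.7 and 40.1 CPM in A549, with no call (log2 0.15, SE 0.10, adjusted p = 0.332).

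In subfamily E, 1 member rose, 1 fell and the most abundant was not called. ADGRE5 (CD97), a receptor for CD55 found on leukocytes and many carcinomas, had 39.8 and 48.0 CPM in TD against 57.05 and 53.63 CPM in A549. It was not called (log2 -0.33, SE 0.11, adjusted p = 0.0733), but it was called lower in 8 of 17 alternative settings, among them with pseudogenes left out (adjusted p = 0.00283) and without TD replicate 2 (0.000184). ADGRE1, the human counterpart of the mouse macrophage marker F4/80, had 2.76 and 2.53 CPM in TD against 4.42 and 4.18 CPM in A549 (log2 -0.70, SE 0.18, adjusted p = 0.0319). ADGRE2, a receptor of mast and myeloid cells, had 1.10 and 1.06 CPM in TD against 0.359 and 0.404 CPM in A549 (log2 1.49, SE 0.33, adjusted p = 0.0208). Both calls were lost without A549 replicate 1 (adjusted p = 0.16 for ADGRE1 and 0.141 for ADGRE2) or replicate 2 (0.116 and 0.117), and ADGRE2 was not called by DESeq2 (0.0741). The counts of ADGRE2 are uncertain, because its EGF-like domains are nearly identical to those of ADGRE5, and 15.7% of its exon bases overlap ZNF333 on the opposite strand. ZNF333 had 134 and 227 counts in TD against 96 and 102 in A549, while ADGRE2 had 32 and 43 against 10 and 12. The part of ZNF333 reads in the ADGRE2 counts was not tested. ADGRE3 had 2 counts in TD and 2 in A549. The leukocyte marker list summed to 8.37 and 8.58 CPM in TD against 5.28 and 4.69 CPM in A549, with the pan-leukocyte gene PTPRC at 4 and 3 counts in TD and 0 and 2 in A549. The higher sum came from CSF1R alone, and without it the list summed to 4.17 and 3.39 CPM in TD against 4.96 and 4.65 CPM in A549. The part of these markers in the ADGRE values was not tested.

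Subfamily B holds brain receptors that bind C1q-like proteins or apoptotic cells. ADGRB2 had 9.31 and 9.67 CPM in TD against 6.14 and 4.89 CPM in A549 (log2 change 0.78, SE 0.16, adjusted p = 0.0163). Leaving out A549 replicate 2 ended that call (adjusted p = 0.0651). ADGRB3 had 0 counts in both TD libraries against 34 and 26 counts in A549, at least 24.2-fold lower in TD (adjusted p = 0.00456). Its call ended without A549 replicate 1 (0.0878) or replicate 2 (0.0636). ADGRB1, an engulfment receptor, had 0.930 and 1.28 CPM in TD against 1.22 and 0.573 CPM in A549, with overlapping lines and no call (adjusted p = 0.635). ADGRD1 (GPR133), which raises cyclic AMP, had 0.345 and 0.738 CPM in TD against 0.934 and 0.640 CPM in A549 and was not called (adjusted p = 0.466). It was called lower without TD replicate 2 (adjusted p = 0.0374). ADGRD2 had 7 and 4 counts in TD against 5 and 4 in A549. ADGRV1, the giant receptor of the ankle links of hair cells, had 16 and 27 counts in TD against 17 and 29 in A549 (adjusted p = 0.494).

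Levels of different members were compared only per length, as CPM per kb of annotated exon. In TD the order was led by ADGRG1 at 28.4, ahead of ADGRG6 at 12.3, ADGRF4 at 9.68, ADGRE5 at 8.16, CELSR1 at 6.82 and ADGRA3 at 6.06 CPM per kb. In A549 it was led by ADGRG6 at 15.7, ahead of ADGRL2 at 12.1, ADGRE5 at 10.3, CELSR1 at 8.86, ADGRG1 at 5.75 and ADGRA3 at 4.34 CPM per kb. ADGRG1 alone made up 32.1% and 34.9% of the family's length-scaled level in the TD libraries, against 8.64% and 8.15% in the A549 libraries. ADGRL2 made up 3.87% and 3.96% in TD against 16.7% and 18.6% in A549, and ADGRF4 12.55% and 10.45% in TD against 1.007% and 1.148% in A549. The family summed to 653 and 733 CPM in TD and 607.5 and 584 CPM in A549, and 25 to 27 members had at least 1 count in each library. The exon lengths come from 1 annotation for both lines, so a change of isoform was not seen by them.

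**Figure D3:**
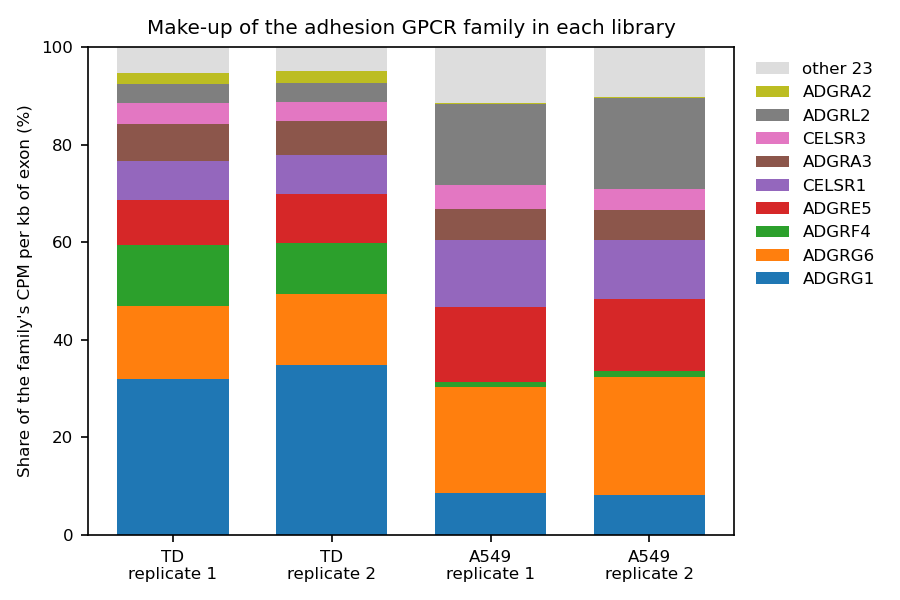
Share (%) of the adhesion GPCR family's CPM per kb of exon taken by each of 9 members and by the other 23 together, in each of the TD and A549 libraries. ADGRG1 takes 32.1% and 34.9% in TD against 8.64% and 8.15% in A549, and ADGRL2 takes 3.87% and 3.96% in TD against 16.7% and 18.6% in A549.

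Members that neighbour each other in the genome did not all move alike. ADGRG1 and ADGRG3 lie side by side on chromosome 16 in RefSeq's gene order. In TD, ADGRG1 rose and ADGRG3 was at 0 counts. On the ADGRG1 side of the pair lie CCDC102A (4.85 CPM in TD, 6.89 CPM in A549, adjusted p = 0.093) and DOK4, which fell (44.0 CPM in TD, 162.5 CPM in A549, adjusted p = 0.000163). Beyond ADGRG3 lies DRC7, which was not tested. On chromosome 6, ADGRF2 and ADGRF4 are adjacent and both rose. The pair ADGRF5 and ADGRF1 lies on the far side of TNFRSF21, which fell (20.4 CPM in TD, 29.6 CPM in A549, adjusted p = 0.0200), and of CD2AP, which was not called (86.6 CPM in TD, 77.0 CPM in A549, adjusted p = 0.208). ADGRL4 and ADGRL2 neighbour each other on chromosome 1, and ADGRL1 and ADGRE5 on chromosome 19. Neither gene of the last pair was called.

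**Figure D4:**
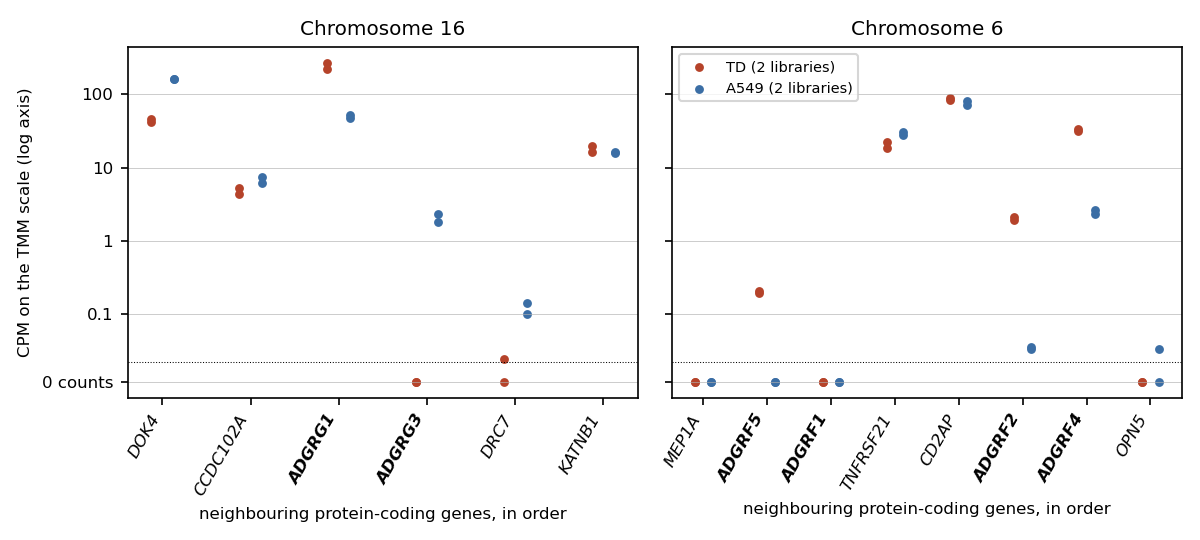
CPM on a log axis of members (bold) and the protein-coding genes beside them, in gene order on chromosomes 16 and 6 (not every gene is drawn), with 1 point per library, TD in red and A549 in blue. ADGRG1 reaches 222 and 269 CPM in TD beside ADGRG3, which is at 0 counts in TD, and ADGRF2 and ADGRF4 are both higher in TD.

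The promoters of 21 members were found in RefSeq's table (GRCh38.p14), each covering 250 bases before and 50 after a gene start. The table may list several starts for a gene, and which start these cells use is not known from counts per gene. A pair of strong risers and a pair of strong falls are shown, each as the 250 bases before the first listed start, 5′ to 3′. Capitals mark the letters CACCTG or its reverse complement CAGGTG, the E-box that SNAI and ZEB factors bind, and CAGAC or GTCTG, the core of the SMAD-binding box. These motifs do not overlap each other in the stretches shown.
ADGRG1, chr16:57619488-57619737, plus strand: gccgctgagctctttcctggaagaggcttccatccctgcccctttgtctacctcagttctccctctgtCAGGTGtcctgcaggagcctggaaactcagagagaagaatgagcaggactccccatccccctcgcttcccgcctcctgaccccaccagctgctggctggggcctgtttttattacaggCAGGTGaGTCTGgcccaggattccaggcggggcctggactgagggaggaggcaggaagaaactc
ADGRF4, chr6:47698330-47698579, plus strand: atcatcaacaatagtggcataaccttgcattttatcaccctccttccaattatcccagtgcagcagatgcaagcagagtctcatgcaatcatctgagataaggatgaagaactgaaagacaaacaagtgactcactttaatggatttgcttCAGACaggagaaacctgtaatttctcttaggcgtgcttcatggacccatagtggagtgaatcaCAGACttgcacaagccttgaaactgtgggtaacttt
ADGRG2, chrX:19122469-19122718, minus strand: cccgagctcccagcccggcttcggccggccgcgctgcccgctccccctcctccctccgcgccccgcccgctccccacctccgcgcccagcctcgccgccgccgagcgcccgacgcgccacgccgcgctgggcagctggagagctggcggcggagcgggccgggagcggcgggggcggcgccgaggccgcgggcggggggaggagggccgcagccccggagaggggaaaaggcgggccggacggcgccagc
ADGRB3, chr6:68635032-68635281, plus strand: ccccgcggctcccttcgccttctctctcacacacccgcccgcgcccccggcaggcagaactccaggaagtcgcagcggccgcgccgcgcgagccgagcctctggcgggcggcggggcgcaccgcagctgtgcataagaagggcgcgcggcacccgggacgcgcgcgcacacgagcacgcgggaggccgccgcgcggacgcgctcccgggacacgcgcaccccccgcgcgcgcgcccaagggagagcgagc
The ADGRG1 stretch held 2 E-boxes, starting 182 and 64 bases before the start, and 1 SMAD box at 57. The ADGRF4 stretch held 2 SMAD boxes, at 99 and 36, and no E-box. The ADGRG2 and ADGRB3 stretches held neither. Other called members did not follow these pairs. At its first listed start, ADGRG6, which fell, held 1 E-box and 1 SMAD box, and ADGRL3, which fell, held 1 SMAD box. The riser ADGRB2 held neither. Over all 35116 promoters of the table, 20.6% held the E-box letters and 45.3% the SMAD box letters within 300 bases. Among the first listed starts of the 21 members, 5 held the first and 11 the second. Over the whole 300 bases of an entry, the ratio of observed to expected CpG was 0.188 at ADGRG1 and 0.204 at ADGRF4. It was 0.960 at ADGRG2 and 1.21 at ADGRB3. The split was not general, as the promoters of the risers ADGRB2 and ADGRA3 had ratios of 0.994 and 0.905, and the median was 0.756 over the 21 members and 0.579 over all promoters. A match to these letters is a description of the sequence, not a binding site.

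Known ligands and binding partners of these receptors changed in both directions. Of 26 listed genes, 23 were tested, 11 rose and 7 fell. That is 78.3% called, against 43.0% of all tested genes and 50.6% of the protein-coding ones. The median log2 change was 0.68, against -0.04 over all tested genes and 0.02 over the protein-coding ones. Ligands such as FLRT2, SFTPD and TENM1 passed the filter only through the line where they were high. The list was chosen with earlier results of these data known. Its counts and medians thus describe it and support no statement about the ligands as a set. Among the partners of latrophilins, FLRT2 had 2031 and 3096 counts in TD against 2 and 1 in A549, a ratio of 1410 (95% exact counting interval 482 to 6841). The teneurin gene TENM2 had 107.5 and 113.5 CPM in TD against 1.29 and 0.910 CPM in A549 (log2 change 6.65, adjusted p = 3.79e-05), and TENM3 rose to 42.3 CPM in TD, against 23.3 CPM in A549. FLRT3 fell to 2.17 CPM in TD, against 18.6 CPM in A549 (adjusted p = 0.000157), and TENM1 to 6 summed counts in TD, against 177 in A549. Leaving out A549 replicate 1 or 2 ended the TENM1 call (adjusted p = 0.0644 and 0.0669). FLRT1 was not called (adjusted p = 0.518), and TENM4, at 1 to 3 counts a library, was not tested.

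Both listed ligands of ADGRG1 rose. TGM2, transglutaminase 2, had 3301 and 3884 CPM in TD against 766 and 775 CPM in A549 (log2 change 2.22, adjusted p = 0.000278), and COL3A1 had 19 and 21 counts in TD against 3 and 1 in A549 (adjusted p = 0.0211). The COL3A1 call ended once A549 replicate 1 or 2 was left out (adjusted p = 0.0813 and 0.136). Collagen IV chains, ligands of ADGRG6, were split. COL4A1 had 1430 and 1364 CPM in TD against 129 and 139 CPM in A549, and COL4A2, COL4A5 and COL4A6 rose as well. COL4A3 and COL4A4 fell, to 3.46 and 10.1 CPM in TD against 25.9 and 54.7 CPM in A549. LAMA2, a laminin chain and also an ADGRG6 ligand, had 12 and 20 counts in TD against 17 and 28 in A549 and was not called (adjusted p = 0.197). PRNP, the prion protein and another ADGRG6 ligand, rose to 492 CPM in TD, against 195 CPM in A549. CD55, the ligand of ADGRE5, fell to 13.9 CPM in TD, against 97.6 CPM in A549 (log2 -2.82, adjusted p = 4.38e-05). SFTPD, a surfactant protein that binds ADGRF5, had 2 and 0 counts in TD against 90 and 77 in A549, 101 times lower in TD (95% exact interval 27.6 to 842). The SFTPD call ended once A549 replicate 1 or 2 was left out (adjusted p = 0.065 and 0.0559), and the count of ligands that fell was 4 in both of those fits. The C1q-like genes moved apart, with C1QL1 lower (adjusted p = 0.0408), C1QL4 higher (0.0236) and C1QL3 not called (0.212). Neither the C1QL1 call (0.226 and 0.0924) nor the C1QL4 call (0.135 and 0.112) held without A549 replicate 1 or 2. The listed genes RTN4R (adjusted p = 0.205) and FNDC4 (0.649) were not called, and THY1 and C1QL2 were not tested. RTN4R was called higher without TD replicate 1 (adjusted p = 0.00156) and C1QL3 lower without TD replicate 2 (0.0324).

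**Figure D5:**
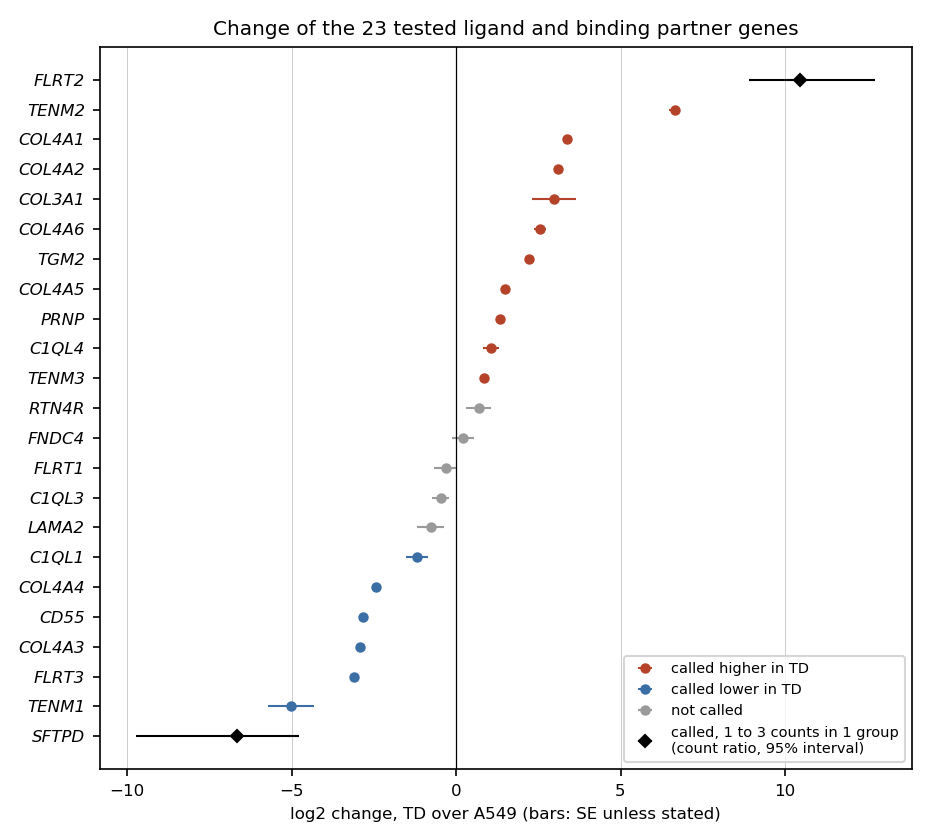
log2 change of TD over A549 for the 23 tested ligand and binding partner genes, with SE bars, red for called higher, blue for called lower and grey for not called. The diamonds for FLRT2 and SFTPD are ratios of summed counts with 95% exact intervals, and FLRT2, TENM2 and the collagen IV genes COL4A1 and COL4A2 stand furthest to the right.

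Signalling genes downstream of the receptors had a median absolute log2 change of 0.40, near the 0.44 of the tested protein-coding genes. It was 0.50 over all tested genes and 2.43 over the tested ligands. Of 21 G protein and effector genes, 20 were tested, 7 rose and 5 fell (12 of 20 called, against 43.0% of all tested and 50.6% of protein-coding genes), with a median signed log2 change of 0.28. The subunits that adhesion GPCRs use to reach RhoA rose, GNA12 to 107 CPM in TD against 51.9 CPM in A549 (log2 1.04, adjusted p = 0.00126) and GNA13 to 126 CPM in TD against 67.4 CPM in A549 (0.91, adjusted p = 0.00320). Of the other listed genes on that route, ARHGEF12 (log2 -0.39, adjusted p = 0.0203) and ROCK2 (-0.65, adjusted p = 0.00476) fell. ARHGEF1 (adjusted p = 0.0506), ARHGEF11 (0.448), RHOA (0.168) and ROCK1 (0.0537) were not called. GNAI3 also rose (log2 0.62, adjusted p = 0.0107), but not once A549 replicate 1 was left out (adjusted p = 0.108). ARRB1 and ARRB2, the β-arrestins that end receptor signalling, fell, to 3.86 and 35.6 CPM in TD against 60.3 and 72.6 CPM in A549 (log2 -3.96 and -1.02, adjusted p = 5.75e-05 and 0.00159). ELMO1, the engulfment adaptor that ADGRB1 recruits, fell to 1.21 CPM in TD, against 16.9 CPM in A549 (adjusted p = 0.000303). ELMO2, on the same list, rose slightly, to 25.7 CPM in TD against 20.9 CPM in A549 (log2 0.30, adjusted p = 0.0312). DOCK1, RHOA and RAC1 were not called. The number that rose was smaller without either A549 replicate and larger without either TD replicate, as it was over all genes. It was 11 with pseudogenes left out, a fit in which 4546 of all genes rose, against 3833 in the main test.

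Of 15 planar polarity genes, which act with the CELSR receptors, 5 rose and 3 fell. The share called, 53.3%, was near the 50.6% of protein-coding genes (43.0% of all tested genes). PTK7, a kinase-like coreceptor, rose to 20.8 CPM in TD, against 2.94 CPM in A549 (log2 change 2.82, adjusted p = 0.000105). PRICKLE2 rose to 19.2 CPM in TD, against 6.30 CPM in A549, and DAAM1, a formin, to 16.9 CPM in TD, against 7.70 CPM in A549. The receptor FZD3 fell to 9.17 CPM in TD, against 19.0 CPM in A549, and FZD6 to 27.8 CPM in TD, against 44.8 CPM in A549. ANKRD6 fell to 2.67 CPM in TD, against 4.39 CPM in A549. VANGL1 rose to 67.0 CPM in TD, against 43.3 CPM in A549 (adjusted p = 0.00436), and DVL1 to 93.6 CPM in TD, against 60.7 CPM in A549 (0.0262). VANGL2, PRICKLE1, PRICKLE3, DVL2, DVL3, SCRIB and INVS were not called. Leaving out either A549 replicate ended the ANKRD6 call (adjusted p = 0.167 and 0.142), and 3 genes rose without A549 replicate 1. Of the 7 genes of WNT7 signalling around ADGRA2, 6 were tested and 50.0% of these were called, within the same background range. RECK rose to 11.1 CPM in TD, against 8.14 CPM in A549 (adjusted p = 0.0239), LRP5 fell to 51.0 CPM in TD, against 168 CPM in A549 (0.000710), and FZD4 to 2.47 CPM in TD, against 4.12 CPM in A549 (0.0367). Neither the RECK call (adjusted p = 0.118 and 0.102) nor the FZD4 call (0.168 and 0.119) held without A549 replicate 1 or 2. WNT7B was not called (0.0958), nor were LRP6 (0.665) and DLG1 (0.514), and WNT7A had 13 and 15 counts in TD against 2 and 3 in A549 and was not tested. Of the ankle-link partners of ADGRV1, MYO7A fell to 1.83 CPM in TD, against 5.06 CPM in A549 (adjusted p = 0.00396). PDZD7 fell (0.0188) and WHRN rose (0.0411), and both calls were lost without A549 replicate 1 (0.166 for PDZD7 and 0.119 for WHRN) or replicate 2 (0.0776 and 0.186). WHRN was not called by DESeq2 (0.0917) either.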

How the data were processed

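Polyadenylated RNA of 2 TD and 2 A549 libraries was extracted with Trizol, made into strand-specific libraries (TruSeq) and read as pairs of 75 bases on an Illumina sequencer, per the labels' protocols. The authors deposited unnormalized counts for each gene, with 1 file a library, and the submitters' processing notes name FastQC 0.11.8, STAR 2.7.1a and HTSeq 0.11.2 with hg19 (GRCh37). For the annotation release and the counting's strand setting, the sources used here give nothing, so genes that overlap on opposite strands are uncertain. The 5 summary rows of each file (reads outside genes, 6.12% to 7.79% of the total, in several genes, 2.34% to 2.56%, and with several alignments, 8.08% to 9.22%) stayed out of library sizes and tests. No libraries were identical.

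Symbols came from a current gene table, and gene types, exon lengths and overlaps from GENCODE 29, whose build (GRCh38) differs from the files' build, so no coordinate was carried over. They gave 52338 of 57820 rows a symbol and type. Tests used edgeR 4.0.16 in R 4.3.3 (quasi-likelihood, TMM scaling, minimum count 10, Benjamini-Hochberg adjustment over all 17785 tested genes, calls at an adjusted p below 0.05). CPM are on the TMM scale, except for the detection limits at 0 counts, and SE is the absolute log2 change divided by the root of F. Ratios with 0 counts in a line use 3 counts over that line, and ratios with 1 to 3 counts carry 95% exact binomial intervals. The fit code was also run on simulated counts with the same spread for every gene, unlike these data. That run bears on the code and not on the calls. Alternatives were DESeq2 1.42.0, limma-voom (limma 3.58.1), other scalings and filters, thinning, a replicate block, each library left out, other gene sets and a test against a 1.5-fold change.  Values of 1 member and 1 marker are not reported here, though the counts include them, and every other member is named. Every listed ligand is named. Of each other partner list, at least the 3 called genes with the largest change in each direction are named, or all where fewer were called. Some further called genes of the G protein and effector list are not named. The members and lists were chosen with earlier results of these data known.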

Additional observations from a re-analysis of the deposited data

How the results depend on the processing

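Across 17 alternatives (16 for members that a filter of 5 CPM left untested, ADGRF2, ADGRG3 and ADGRV1 among them), 11 of the 24 tested members kept their call or lack of one throughout, among them the rises of ADGRG1, ADGRA2, ADGRF4 and ADGRF2 and the falls of ADGRG2, ADGRG3, ADGRL2 and CELSR2. Of 397 values, 28 lost a call, 12 gained one and 1 changed sign, that of ADGRB1, whose uncalled log2 change ran from -0.165 to 0.945 with single libraries left out. Among ligands, the uncalled FLRT1 ran from -0.61 to 0.032 and changed sign without A549 replicate 1. Against a 1.5-fold change, 4 members rose and 6 fell, 15 partner genes rose, and over all genes 1741 rose and 2109 fell. In the main test, 67 partner genes of all lists together were tested, 25 rose and 19 fell. That is 65.7% called, against 43.0% of all tested genes and 50.6% of the protein-coding ones. With 5 CPM required in 2 libraries, 6 members fell. With single libraries left out, members that rose numbered 5 to 7 and that fell 5 to 12, partner genes 14 to 33 and 12 to 21, and all genes 1676 to 5141 and 1690 to 5923. With the replicate number as a block, 5 members rose and 7 fell, and ADGRB2, ADGRE1, ADGRE2 and CELSR1 were among those not called. The labels do not pair the libraries, and deviations of same-numbered libraries correlated at -0.0787 over the tested genes. Library totals in place of TMM moved the median of all genes from -0.04 to -0.12 on the log2 scale and kept the direction of every tested member. Depth limits the members under about 1 CPM, and the 8 untested members can be read only as counts.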

Other observations

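Several noncoding rows carry the names of members. ADGRB3-DT, a transcript that runs away from the ADGRB3 start, had 0 counts in both TD libraries against 16 and 19 in A549, at least 14.1-fold lower in TD (adjusted p = 0.00844 by edgeR), as the ADGRB3 row itself had 0 counts in TD. ADGRD1-AS1, on the strand opposite ADGRD1, had 3.17 and 3.27 CPM in TD against 0.754 and 0.809 CPM in A549 (log2 change 2.04, SE 0.23, adjusted p = 0.00252), while ADGRD1 was not called. The annotated exons of that pair share 109 bases. ADGRL1-AS1 had 3.24 and 2.75 CPM in TD against 2.84 and 2.19 CPM in A549 and was not called (adjusted p = 0.448). ADGRE4P, the pseudogene of subfamily E, had 1 count in TD and 2 in A549. These rows were chosen after their values were seen.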
